A study of Mus musculus with 27 samples.

Results

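The genes described here are 34 members of the mouse MHC class I antigen presentation route and of the 20S proteasome core, followed by name through polyA RNA libraries of 4T1 cells, a mammary carcinoma line from a BALB/c mouse. They were taken by gene name from a table of 55401 genes, a rule that uses no measured value, and the set was proposed with earlier results of these data known. The set holds 2 classical class I heavy chains, 5 non-classical heavy chains, the light chain B2m, 5 genes of peptide transport and loading, the transactivator Nlrc5, 3 inducible catalytic proteasome subunits, 3 genes of the PA28 activator and the 14 subunits of the constitutive core. Of the core subunits 7 belong to the alpha ring, 4 are non-catalytic members of the beta ring and 3 are its constitutive catalytic members.

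The libraries formed 9 groups of 3. Drp1 knockout cells came as clones gs1B8 and gs2_B4, Fis1 knockout cells as clones gs1_B11 and gs2_F6, and Mff knockout cells as clones gs1_B4 and gs1_C8, all made with CRISPR-Cas9 and compared with parental 4T1 cells. Drp1 is the GTPase that divides mitochondria and is encoded by Dnm1l, and Fis1 and Mff are outer-membrane proteins that act with it. The other arm held 4T1 cells given leflunomide, an inhibitor of the pyrimidine synthesis enzyme Dhodh, and cells given its vehicle DMSO, each for 3 days. Each clone code is 1 clone, so a knockout and the history of the clone that carries it cannot be told apart within a clone, and all 6 clones were set against the same 3 parental libraries. Clone codes are those of the deposited table, and they could not be matched to the clone numbers of the labels. Whether the 3 libraries of a group came from separate cultures is not given, and a p-value here covers the variation among these libraries alone, which may be technical.

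Proteins in the cytosol are cut to peptides by the proteasome, carried into the endoplasmic reticulum by the transporter made of Tap1 and Tap2, trimmed by Erap1 and loaded with the help of tapasin (Tapbp) onto a class I heavy chain paired with B2m. The core particle has catalytic beta subunits that can be replaced: Psmb8 takes the place of Psmb5, Psmb9 that of Psmb6 and Psmb10 that of Psmb7, and particles so built are called immunoproteasomes. Interferons and the factors Irf1, NF-kappaB and Nlrc5 are known to switch on the heavy chains, the loading genes and the inducible subunits, while the constitutive core is made in all cells.

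The upstream sequences of 9 members are shown. These are the members with at least 1 of 3 motifs of the interferon and NF-kappaB pathways in the bases shown. RefSeq promoter windows on GRCm38.p6 were present for 28 of the 34 members, and Tap2, Tapbpl, Nlrc5, Psmb1, Psmb2 and Psmb7 had no entry. Each run is the 200 bases before the annotated start of transcription, written 5′ to 3′ on the strand of the gene, and capitals mark matches on either strand to the interferon-stimulated response element core GAAANNGAAA, the gamma-activated site TTCNNNGAA or the kappaB core GGGNNTTNCC.
H2-K1, chr17:34000348-34000547, minus strand: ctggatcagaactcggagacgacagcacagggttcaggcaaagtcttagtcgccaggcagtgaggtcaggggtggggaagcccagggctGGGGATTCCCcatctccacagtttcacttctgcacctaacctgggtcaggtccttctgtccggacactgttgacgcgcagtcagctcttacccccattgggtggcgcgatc
H2-D1, chr17:35262894-35263093, plus strand: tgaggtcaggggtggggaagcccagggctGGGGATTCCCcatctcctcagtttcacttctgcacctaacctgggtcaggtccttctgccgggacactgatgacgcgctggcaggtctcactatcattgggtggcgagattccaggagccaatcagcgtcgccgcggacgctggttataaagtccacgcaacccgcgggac
H2-Q4, chr17:35379417-35379616, plus strand: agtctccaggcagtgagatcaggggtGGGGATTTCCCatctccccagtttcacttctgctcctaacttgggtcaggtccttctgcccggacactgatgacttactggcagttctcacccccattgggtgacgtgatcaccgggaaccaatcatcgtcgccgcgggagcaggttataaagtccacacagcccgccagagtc
H2-Q7, chr17:35438955-35439154, plus strand: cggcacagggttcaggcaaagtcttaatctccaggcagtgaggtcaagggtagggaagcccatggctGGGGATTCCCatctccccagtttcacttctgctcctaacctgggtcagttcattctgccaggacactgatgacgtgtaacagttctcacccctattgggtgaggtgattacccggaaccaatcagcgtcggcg
B2m, chr2:122147487-122147686, plus strand: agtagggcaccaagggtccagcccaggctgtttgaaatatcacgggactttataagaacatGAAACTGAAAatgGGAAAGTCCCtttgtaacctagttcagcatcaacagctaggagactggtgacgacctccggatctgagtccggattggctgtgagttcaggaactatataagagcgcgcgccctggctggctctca
H2-T23, chr17:36032702-36032901, minus strand: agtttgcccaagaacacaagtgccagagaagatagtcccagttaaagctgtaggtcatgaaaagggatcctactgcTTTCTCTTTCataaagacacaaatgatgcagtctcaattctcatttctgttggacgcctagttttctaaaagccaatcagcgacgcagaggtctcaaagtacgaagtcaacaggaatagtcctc
H2-T22, chr17:36042743-36042942, minus strand: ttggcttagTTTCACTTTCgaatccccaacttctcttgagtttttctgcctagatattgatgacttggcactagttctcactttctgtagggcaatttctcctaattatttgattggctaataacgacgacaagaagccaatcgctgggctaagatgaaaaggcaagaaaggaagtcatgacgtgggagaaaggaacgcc
Psmb8, chr17:34197995-34198194, plus strand: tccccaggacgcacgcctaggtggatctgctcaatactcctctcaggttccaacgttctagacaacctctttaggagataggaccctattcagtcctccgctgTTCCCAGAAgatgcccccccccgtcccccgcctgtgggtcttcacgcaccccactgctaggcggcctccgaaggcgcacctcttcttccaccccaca
Psmb3, chr11:97703234-97703433, plus strand: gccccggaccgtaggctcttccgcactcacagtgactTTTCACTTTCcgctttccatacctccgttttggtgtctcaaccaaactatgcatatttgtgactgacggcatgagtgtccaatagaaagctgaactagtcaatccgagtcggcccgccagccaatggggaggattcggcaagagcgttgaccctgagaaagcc

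The kappaB core was found in these 200 bases for 5 of the 28 members, namely both classical heavy chains, H2-Q4, H2-Q7 and B2m, against 3.30% of the 27025 genes with an entry. H2-K1 carried it 111 to 102 bases before the start and H2-D1 171 to 162 bases before it, and the capitals of H2-Q4 are a pair of overlapping matches. The interferon element was found for 4 members, B2m, H2-T22, H2-T23 and Psmb3, against 2.33% of genes. In the full window of 300 bases, 50 of them past the start, it was found for 6, with Erap1 and Psme1 added, against 3.49%. Elements that depart from the letters of the core were not searched, so a member without a match may still carry one. B2m held both, with the interferon element 139 to 130 and the kappaB core 126 to 117 bases before the start. The gamma-activated site was found for 1 member, Psmb8, 97 to 89 bases before the start, against 5.62% of genes. In the full window it was found for 2, Psmb8 and H2-M3, against 8.47%. CCAAT, searched in the same way, was found for 17 of 28 members against 30.0% of genes, and the antioxidant response core TGACNNNGC, a sequence that Nfe2l1 can bind, for 4 of 28 (Psmb5, Psmb6, H2-K1 and H2-T22) against 8.61%. A match is a description of the letters and not a measured binding site.

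Library totals ran from 18492020 to 31295937 counts. The targeted transcripts were lower in their own clones, with log2 fold changes of -1.68 and -2.42 for Dnm1l, -1.17 and -1.47 for Fis1 and -0.88 and -1.01 for Mff, where reads outside a small edited stretch can remain. All 5 mammary epithelial markers were expressed, with a summed level of 1355 to 2857 CPM, counts scaled to a common library total. Of the class II presentation, leukocyte and endothelial or fibroblast marker lists, 9 of 10, 6 of 7 and 6 of 7 genes stayed under 1 CPM in every library, with summed levels of 0.504 to 3.41, 0.662 to 9.37 and 2.27 to 8.15 CPM. Libraries that stand apart touch some results. DMSO replicate 3 had 25.4% of its counts in ribosomal RNA genes, and Mff gs1_C8 replicate 1 was higher than the other gs1_C8 libraries for most class I and inducible genes, so the main counts and differences of gs1_C8 are given with and without it.

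Members were tested with the edgeR quasi-likelihood test, and those with a Benjamini-Hochberg adjusted p under 0.05 over all genes of the fit were called. Psmb9 had too few counts for the test, which left 33 members. In the Drp1 clones, 9 members rose and 0 fell in gs1B8 and 11 rose and 4 fell in gs2_B4, where 12.1% and 24.1% of all tested genes were called higher and 17.4% and 26.3% lower. In the Fis1 clones, 8 rose and 9 fell in gs1_B11 and 11 rose and 3 fell in gs2_F6, beside 21.4% and 13.1% of all genes higher and 25.9% and 18.2% lower. In the Mff clones, 11 rose and 8 fell in gs1_B4 and 16 rose and 11 fell in gs1_C8, beside 20.9% and 21.5% higher and 26.8% and 25.2% lower. With leflunomide 2 members rose and 0 fell, beside 1.84% and 0.944% of all genes. At an unadjusted p under 0.05, 10 members were higher and 1 lower in gs1B8, and 12 were higher and 2 lower with leflunomide. The share of all genes at that threshold is not given. DESeq2 called 0 members lower in both comparisons. The share of members called higher was above that of all genes in 5 clones, by most in gs1_C8, and near it in Fis1 gs1_B11. The share called lower was above that of all genes in gs1_C8 and near or below it in the other 5 clones.

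The presentation genes and the core subunits moved apart most in Mff gs1_C8. Of the 14 class I and loading genes (Nlrc5 included) 12 rose there and 0 fell, with a median log2 fold change of 0.94, while of the 14 core subunits 0 rose and 11 fell, with a median of -0.20, beside a median of -0.02 over all tested genes. At an unadjusted p under 0.05, for which the share of all genes is not given, these counts of 0 stayed at 0. Over the other 5 clones the class I and loading genes gave 4, 6, 3, 2 and 8 higher calls in Drp1 gs1B8, Drp1 gs2_B4, Fis1 gs1_B11, Fis1 gs2_F6 and Mff gs1_B4, and 0, 0, 2, 2 and 2 lower calls. The shares of all tested genes called in each clone are those given above. Their medians were 0.13, 0.11, -0.04, 0.03 and 0.42 in the same clones, and those of the core subunits were 0.01, -0.03, -0.03, 0.14 and -0.03. In bulk libraries, fewer cells that express a gene and less RNA per cell cannot be told apart.

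**Figure D1:**
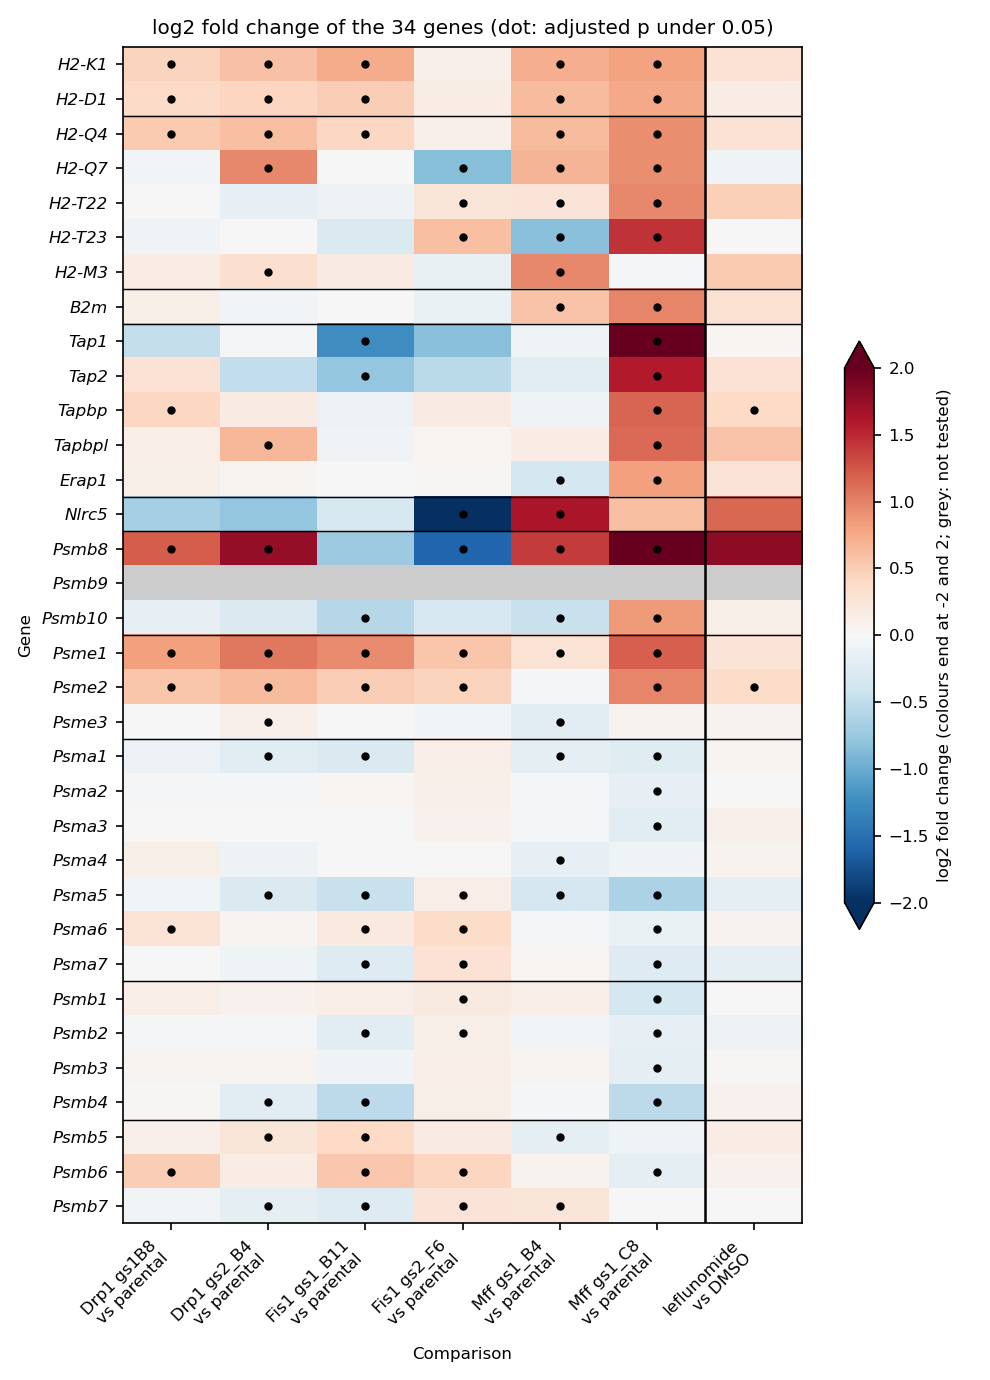
Log2 fold changes of the 34 members (rows, grouped by role) in the 6 knockout clones against parental cells and in leflunomide against DMSO (columns), with a dot where the edgeR test called the gene and grey where Psmb9 was not tested. The column of Mff gs1_C8 holds 16 higher calls among the presentation and inducible genes and 11 lower calls among the core subunits.

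The classical heavy chains H2-K1 and H2-D1, which present peptides to CD8 T cells, were higher than in parental cells in 5 of the 6 clones. H2-K1 (ENSMUSG00000061232.16, GRCm38 chromosome 17, 33996017 to 34000347) stood at 56.5, 51.3 and 58.7 CPM in Drp1 gs1B8, 61.8, 56.7 and 64.0 in Drp1 gs2_B4, 69.3, 68.9 and 63.5 in Fis1 gs1_B11, 45.6, 43.5 and 41.9 in Fis1 gs2_F6, 71.1, 68.0 and 64.5 in Mff gs1_B4 and 82.8, 68.1 and 62.4 in Mff gs1_C8, against 39.6, 39.6 and 41.5 in parental cells. Every clone library lay above every parental library, and those of Fis1 gs2_F6 did so by the least. The log2 fold changes ran from 0.45 (SE 0.0802, adjusted p = 0.000227) in Drp1 gs1B8 to 0.81 (SE 0.0794, adjusted p = 7.09e-08) in Mff gs1_C8 for the 5 called clones, and the value in Fis1 gs2_F6 was 0.11 (SE 0.0810, adjusted p = 0.36). H2-D1 was called in the same 5 clones, with 283, 219 and 222 CPM in Mff gs1_C8 and 159.7, 159 and 157 CPM in Fis1 gs2_F6, against 137, 139 and 148 CPM in parental cells, and fold changes of 1.30 to 1.69 in the called clones. Both genes, H2-Q4 and the PA28 genes Psme1 and Psme2 were the 5 members higher in at least 5 clones, 5 of 33 beside 3.03% of all tested genes, and none was lower in at least 5 clones, where 6.43% of all genes were.

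Heavy-chain reads are shared between near-identical genes and were divided among them by the authors' estimation, so the split between H2-K1, H2-D1 and the H2-Q and H2-T genes is uncertain. The d haplotype of BALB/c also differs from the C57BL/6J reference genome at these genes. Of all members, 19 had fractional counts, the mark of divided reads, in at least 1 library, and 12 lie in the MHC region of chromosome 17. B2m, Tap1, Psmb8 and Psmb10 had whole counts in all libraries.

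B2m, the light chain that all class I heavy chains need, rose only in the Mff clones among the 6. It stood at 352, 334 and 328 CPM in Mff gs1_B4 and 539, 392 and 398 CPM in Mff gs1_C8, against 207, 213 and 246 CPM in parental cells. The libraries of both Mff clones lay above all parental ones, with log2 fold changes of 0.58 (SE 0.0957, adjusted p = 4.92e-05) in gs1_B4 and 0.98 (SE 0.0956, adjusted p = 6.98e-08) in gs1_C8. In the Drp1 and Fis1 clones its libraries ran from 196 to 253 CPM, across the parental range, and its log2 fold changes were 0.12, -0.060, 0.0037 and -0.14 in gs1B8, gs2_B4, gs1_B11 and gs2_F6.

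The non-classical heavy chains did not move as 1 group. H2-T23, the mouse Qa-1 molecule that carries leader peptides of other class I chains to NK receptors, stood at 16.9, 14.4 and 16.2 CPM in Fis1 gs2_F6, 7.17, 5.55 and 5.12 in Mff gs1_B4 and 34.4, 26.4 and 24.2 in Mff gs1_C8, against 11.4, 10.5 and 9.24 in parental cells. It rose in Fis1 gs2_F6, with 0.60 (SE 0.123, adjusted p = 0.000784), and in Mff gs1_C8, with 1.44 (SE 0.119, adjusted p = 6.54e-09), and fell in Mff gs1_B4, with -0.83 (SE 0.135, adjusted p = 3.58e-05), and none of these 3 groups overlapped the parental libraries. H2-M3, which presents formylated peptides such as those of bacteria and mitochondria, was highest in Mff gs1_B4, at 16.2, 16.4 and 15.8 CPM against 7.96, 7.58 and 8.97 CPM in parental cells and a log2 fold change of 0.95 (SE 0.0959, adjusted p = 9.25e-08). It was at 8.54, 8.47 and 7.31 CPM in the other Mff clone, gs1_C8, within the parental range but for 1 library. H2-M3 was also called higher in Drp1 gs2_B4, at a mean of 10.3 CPM against 8.17 CPM in parental cells. That call was lost without parental replicate 2 or gs2_B4 replicate 3. H2-Q7, a Qa-2 chain of low level here, was at 3.31, 2.85 and 3.10 CPM in Drp1 gs2_B4, 0.829, 0.939 and 0.841 in Fis1 gs2_F6, 2.49, 2.65 and 2.52 in Mff gs1_B4 and 3.67, 2.41 and 2.90 in Mff gs1_C8, against 1.23, 1.42 and 2.04 in parental cells. It rose in Drp1 gs2_B4 and both Mff clones and fell in Fis1 gs2_F6, with log2 fold changes of 0.97, 0.68, 0.92 and -0.85. The call in Fis1 gs2_F6 was lost without parental replicate 3 and that in Mff gs1_B4 without parental replicate 1. H2-Q4, a second H2-Q chain, rose in the 5 clones other than Fis1 gs2_F6, at 42.3, 30.3 and 29.4 CPM in Mff gs1_C8 against 16.3, 18.2 and 18.9 CPM in parental cells, with log2 fold changes of 0.42 in Fis1 gs1_B11 to 0.92 in Mff gs1_C8. H2-T22, a ligand of gamma-delta T cells, rose in Mff gs1_C8 with a log2 fold change of 0.96 (SE 0.0831, adjusted p = 1.34e-08) and in Mff gs1_B4 and Fis1 gs2_F6 by 0.25 and 0.24, both lost with single libraries left out, the second also with DESeq2.

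**Figure D2:**
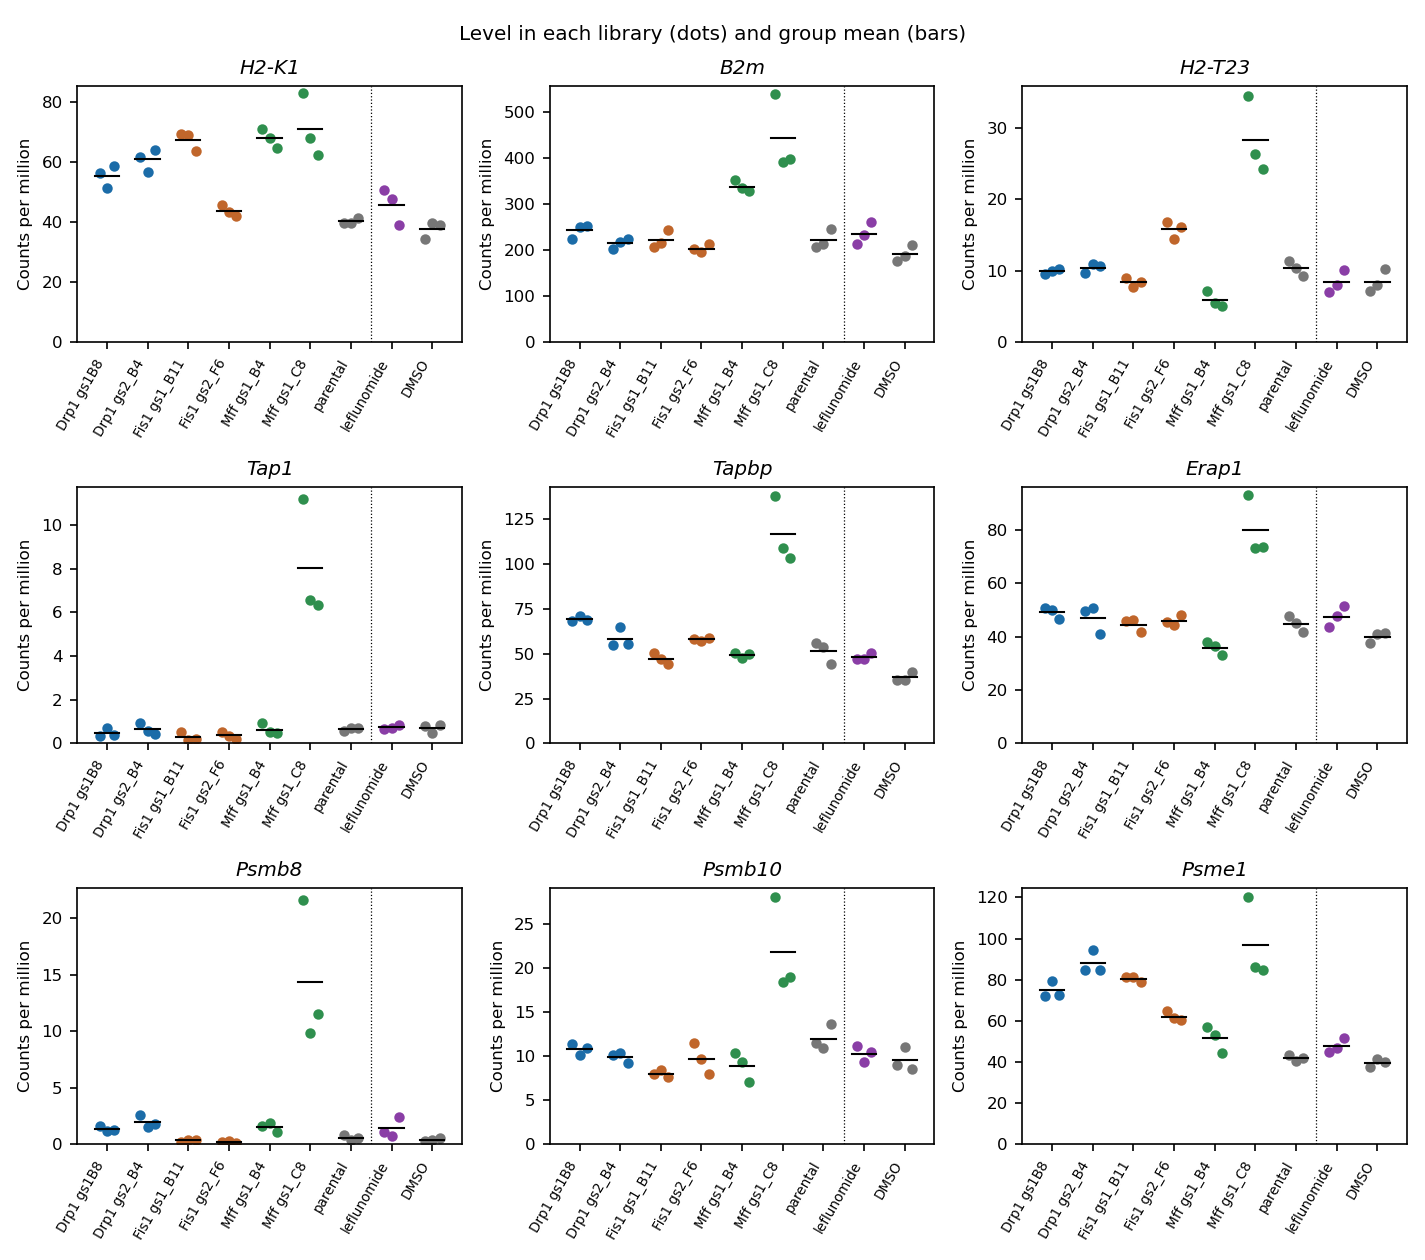
Level in each library (points, CPM) of H2-K1, B2m, H2-T23, Tap1, Tapbp, Erap1, Psmb8, Psmb10 and Psme1 over the 9 groups, clones before parental cells and leflunomide before DMSO. For Tap1 and Psmb8 all 3 libraries of Mff gs1_C8 lie above every other library, with replicate 1 the highest.

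All 5 genes of peptide transport and loading rose in Mff gs1_C8. Tap1, one chain of the peptide transporter (ENSMUSG00000037321.17, chromosome 17, 34187553 to 34197225), stood at 11.2, 6.57 and 6.34 CPM there, against 0.568, 0.710 and 0.680 CPM in parental cells, from 305, 183 and 144 counts in gs1_C8. The groups were far apart, with a log2 fold change of 3.60 (SE 0.369, adjusted p = 9.17e-08), or 3.30 without gs1_C8 replicate 1. In the other clones Tap1 stayed under 1 CPM in every library, and it fell in Fis1 gs1_B11, at 0.4998, 0.147 and 0.183 CPM with a log2 fold change of -1.24 (SE 0.512, adjusted p = 0.0462), a call lost when any parental library or Fis1 gs1_B11 replicate 2 or 3 was left out. Tap2, the second chain, was at 6.05, 4.24 and 3.83 CPM in gs1_C8, against 1.94, 1.18 and 1.54 CPM in parental cells, with a log2 fold change of 1.59 (SE 0.228, adjusted p = 9.09e-06). It too fell in Fis1 gs1_B11, with a log2 fold change of -0.77, and that call was lost without parental replicate 1 or gs1_B11 replicate 2 or 3.

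Tapasin, Tapbp, which bridges the transporter and the empty heavy chain, stood at 138, 109 and 103 CPM in Mff gs1_C8 and 68.1, 70.8 and 68.6 CPM in Drp1 gs1B8, against 56.1, 53.9 and 44.4 CPM in parental cells. Neither clone overlapped the parental libraries, and the log2 fold changes were 1.17 (SE 0.0928, adjusted p = 3.96e-09) in gs1_C8 and 0.42 (SE 0.0943, adjusted p = 0.00212) in gs1B8. Tapbpl, a tapasin-related peptide editor, rose in gs1_C8 and in Drp1 gs2_B4, at 11.8 ± 1.94 CPM in gs1_C8 and 8.60 ± 0.101 CPM in gs2_B4, against 5.34 ± 0.855 CPM in parental cells (SD, n = 3 each). Erap1, the aminopeptidase that trims peptides in the endoplasmic reticulum, moved in opposite directions in the Mff clones. It was at 38.0, 36.4 and 33.3 CPM in gs1_B4 and 93.2, 73.2 and 73.5 CPM in gs1_C8, against 47.8, 45.02 and 41.8 CPM in parental cells, and its log2 fold changes were -0.35 (SE 0.0931, adjusted p = 0.00391) and 0.82 (SE 0.0900, adjusted p = 3.19e-07).

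Nlrc5, which binds class I promoters and raises their transcription, was a low-count gene in all groups. It had 2, 1 and 0 counts in the libraries of Fis1 gs2_F6 and 50, 48 and 73 in those of Mff gs1_B4, against 12, 16 and 18 in parental cells. The 3 counts of gs2_F6 against 46 in parental cells give a ratio of 0.0567 after library scaling, with an exact 95% interval of 0.0113 to 0.176 that covers counting error only. In Mff gs1_B4 it rose, with a log2 fold change of 1.63 (SE 0.355, adjusted p = 0.000666). In Mff gs1_C8, the clone with the most higher calls among class I genes, it had 41, 17 and 22 counts and a log2 fold change of 0.60 (SE 0.372, adjusted p = 0.195), which did not pass.

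Of the tested members, the inducible catalytic subunit Psmb8 had the largest fold change. Psmb8 (ENSMUSG00000024338.15, chromosome 17, 34197721 to 34201454), the chymotrypsin-like subunit that replaces Psmb5, stood at 1.59, 1.21 and 1.25 CPM in Drp1 gs1B8, 2.61, 1.53 and 1.77 in Drp1 gs2_B4, 0.250, 0.369 and 0.411 in Fis1 gs1_B11, 0.207, 0.259 and 0.0841 in Fis1 gs2_F6, 1.66, 1.89 and 1.10 in Mff gs1_B4 and 21.6, 9.87 and 11.5 in Mff gs1_C8, against 0.805, 0.355 and 0.589 in parental cells. Both Drp1 and both Mff clones lay above all parental libraries and Fis1 gs2_F6 lay below them, while Fis1 gs1_B11 overlapped them. The log2 fold changes were 4.62 (SE 0.367, adjusted p = 1.15e-09) in Mff gs1_C8, 1.76 (SE 0.389, adjusted p = 0.000522) in Drp1 gs2_B4, 1.40 (SE 0.395, adjusted p = 0.00488) in Mff gs1_B4, 1.22 (SE 0.401, adjusted p = 0.0232) in Drp1 gs1B8 and -1.58 (SE 0.574, adjusted p = 0.0306) in Fis1 gs2_F6. Without replicate 1 the value in gs1_C8 was 4.21. The call in Drp1 gs1B8 was lost with voom and without its replicate 1 or parental replicate 2 or 3, and that in Fis1 gs2_F6 with voom and without replicate 1 or 3 of either group.

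Psmb10, the trypsin-like inducible subunit, stood at 28.1, 18.5 and 19.1 CPM in Mff gs1_C8, against 11.5, 10.9 and 13.6 CPM in parental cells. The groups did not overlap, and it rose in gs1_C8 with a log2 fold change of 0.86 (SE 0.150, adjusted p = 9.04e-05), or 0.65 without replicate 1. It fell in Mff gs1_B4 and Fis1 gs1_B11, with log2 fold changes of -0.45 (SE 0.159, adjusted p = 0.0241) and -0.57 (SE 0.162, adjusted p = 0.00661), and the first of these calls was lost without parental replicate 1 or 3 or gs1_B4 replicate 3. Psmb9, the inducible subunit that replaces the caspase-like Psmb6, had 31, 9 and 11 counts in Mff gs1_C8 and 6, 5 and 7 in Drp1 gs1B8, against 2, 2 and 2 in parental cells. Its summed counts gave ratios to parental cells of 7.48 (exact 95% interval 3.21 to 21.3) in gs1_C8 and 2.71 (1.03 to 8.35) in gs1B8, with counting error only. Psmb9 spans 34181987 to 34187764 on chromosome 17 and so overlaps the start of Tap1, from which it is read in the other direction. Both genes had whole counts in all libraries, without the fractions that mark divided reads. Whether counting used strand is not stated, and how reads in that overlap were assigned was not tested.

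The ratio of an inducible subunit to its constitutive partner in the same library does not depend on library scaling. Of the counts of Psmb8 and Psmb5 together, Psmb8 held 25.1%, 13.8% and 16.6% in the libraries of Mff gs1_C8 and 3.20%, 1.93% and 2.33% in Drp1 gs2_B4, against 1.30%, 0.570% and 0.827% in parental cells. The log2 ratio of Psmb8 to Psmb5 averaged -2.18 ± 0.549 in Mff gs1_C8 and -6.81 ± 0.581 in parental cells (SD, n = 3 each), a difference of 4.63. The differences were 1.13, 1.501, -1.09, -1.80 and 1.57 in Drp1 gs1B8, Drp1 gs2_B4, Fis1 gs1_B11, Fis1 gs2_F6 and Mff gs1_B4, so the ratio was higher in the Drp1 and Mff clones and lower in the Fis1 clones. None of the 6 clones overlapped the parental libraries, and each gave a two-sided exact permutation p of 0.1, the smallest that 3 against 3 libraries can give. In the Fis1 clones the ratio rests on few Psmb8 counts. They were 6, 10 and 9 in gs1_B11 and 5, 8 and 2 in gs2_F6, against 17, 9 and 13 in parental cells. In gs1_B11 Psmb8 itself was not called, while its partner Psmb5 was called higher. Psmb10 held 10.3%, 8.23% and 8.01% of the counts it shared with Psmb7 in Mff gs1_C8, against 5.33%, 4.86% and 5.35% in parental cells, a log2 difference of 0.82. In Mff gs1_B4 that difference was -0.71, in Fis1 gs2_F6 -0.59 and in Fis1 gs1_B11 -0.32, each without overlap and with an exact permutation p of 0.1. Psmb9 held 1.39%, 0.422% and 0.643% of its pair with Psmb6 in gs1_C8, against 0.115%, 0.0913% and 0.0952% in parental cells. Without gs1_C8 replicate 1 the log2 differences in gs1_C8 were 4.32 for Psmb8, 0.69 for Psmb10 and 2.14 for Psmb9, each to its partner.

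**Figure D3:**
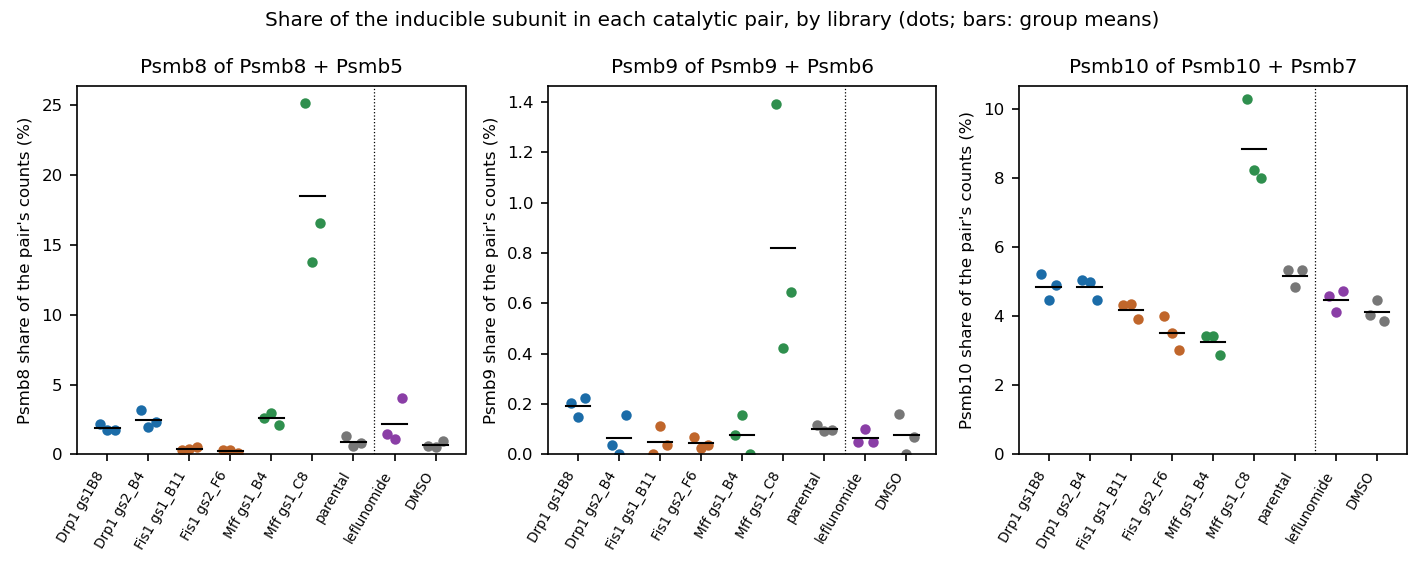
Share of the inducible subunit in the counts of each pair (Psmb8 with Psmb5, Psmb9 with Psmb6, Psmb10 with Psmb7), in percent, 1 point per library over the 9 groups. Psmb8 reached 13.8% to 25.1% of its pair in Mff gs1_C8 and stayed below these values in all other libraries.

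Per length of the longest protein-coding transcript, the constitutive partners outweighed the inducible ones in gs1_C8 as in parental cells. Coding transcripts run from 358 to 1628 bases for Psmb8 and from 622 to 899 for Psmb5, so these levels depend on the transcript taken. Psmb8 stood at 8.80 and Psmb5 at 68.3 CPM per kilobase in Mff gs1_C8, against 0.358 for Psmb8 and 71.9 for Psmb5 in parental cells. Psmb10 stood at 16.7 and Psmb7 at 192 CPM per kilobase in gs1_C8, against 9.15 and 189 in parental cells. Psmb9 was the lowest of the 6 catalytic subunits, at 0.479 CPM per kilobase in gs1_C8 and 0.0651 in parental cells, beside 96.7 and 110.1 for Psmb6 in the same groups. B2m was the class I gene with the highest level per length of those compared, at 515 CPM per kilobase in gs1_C8 and 258 in parental cells. H2-D1, H2-K1 and Tap1 were at 115, 43.9 and 2.72 CPM per kilobase in gs1_C8, against 67.2, 24.9 and 0.221 in parental cells.

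PA28, a ring that caps the core and opens it, is made of Psme1 and Psme2, and a separate nuclear form is made of Psme3. Psme1 was the 1 member higher in all 6 clones, beside 0.538% of all tested genes. It stood at 72.2, 79.5 and 72.6 CPM in Drp1 gs1B8, 84.6, 94.3 and 84.7 in Drp1 gs2_B4, 81.3, 81.5 and 78.7 in Fis1 gs1_B11, 64.6, 61.2 and 60.2 in Fis1 gs2_F6, 56.8, 53.0 and 44.5 in Mff gs1_B4 and 120.4, 86.3 and 84.5 in Mff gs1_C8, against 43.2, 40.7 and 41.9 in parental cells. No clone library overlapped the parental ones, and the log2 fold changes ran from 0.27 (SE 0.105, adjusted p = 0.0433) in Mff gs1_B4 to 1.202 (SE 0.103, adjusted p = 1.17e-08) in Mff gs1_C8. The call in Mff gs1_B4 was lost without gs1_B4 replicate 1 or 2 or parental replicate 2 or 3, and with it the call in all 6 clones. Psme2 rose in 5 clones, with log2 fold changes of 0.55, 0.63, 0.49, 0.45 and 0.98 in gs1B8, gs2_B4, gs1_B11, gs2_F6 and gs1_C8, and stood at 52.9, 53.0 and 41.6 CPM in Mff gs1_B4, against 48.5, 50.3 and 47.8 CPM in parental cells. Psme3, which is not part of the interferon-induced pair, stood between 208 and 267 CPM in all libraries of the knockout arm. It was called at 0.097 in Drp1 gs2_B4 and -0.23 in Mff gs1_B4. The first of these calls was lost without the low-count filter and with only the 2 groups compared. It was also lost without parental replicate 1 or 3 or gs2_B4 replicate 1.

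The constitutive core subunits moved by small amounts, and not in 1 direction. Over the 9 groups the highest group mean was 1.19 to 1.70 times the lowest for the 14 core subunits, with a median of 1.42. It was 1.89 to 78.1 times, with a median of 2.70, for the 19 presentation, inducible and PA28 members other than Psme3. These ranges pool both arms. The lowest group was DMSO, of the drug arm, for H2-K1, H2-D1, H2-Q4, H2-T22, B2m, Tapbp, Tapbpl, Psme1 and Psme2, and for no core subunit. The ranges of Psmb8 (78.1) and Nlrc5 (55.5) rest on 15 and 3 counts in their lowest group, Fis1 gs2_F6. In Mff gs1_C8, 11 of the 14 fell and 3 were not called (Psma4, Psmb5 and Psmb7), and in Fis1 gs2_F6 7 rose and 0 fell. Drp1 gs1B8 had 2 higher and 0 lower calls, Drp1 gs2_B4 1 and 4, Fis1 gs1_B11 3 and 6, and Mff gs1_B4 1 and 4. Of all tested genes 12.1%, 24.1%, 21.4% and 20.9% were higher in these clones and 17.4%, 26.3%, 25.9% and 26.8% lower. In gs1_C8 25.2% of all tested genes were lower, and in gs2_F6 13.1% were higher. At an unadjusted p under 0.05, 1 core subunit was lower in gs1B8, 0 were lower in gs2_F6, and 2 were lower and 0 higher with leflunomide. The share of all genes at that unadjusted threshold is not given, so these counts have no background beside them. In gs1_C8 the lower calls were 6 without its replicate 2, 6 without parental replicate 3 and 7 without its replicate 3, and in gs2_F6 the higher calls ran from 4 to 11 when single libraries were left out. Mff gs1_B4 had 2 higher and 1 lower calls without parental replicate 3, without its own replicate 3 and in a fit of all 27 libraries, and 1 and 2 without parental replicate 1 or 2. Drp1 gs1B8 had 4 higher calls without parental replicate 3. Drp1 gs2_B4 had 0 higher calls without parental replicate 1 or 2, and 3 higher and 3 lower without parental replicate 3.

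Psma5, of the alpha ring through which substrates enter, had the largest decrease of the core. It stood at 202, 213 and 202 CPM in Drp1 gs1B8, 174, 175 and 178 in Drp1 gs2_B4, 147, 155 and 163 in Fis1 gs1_B11, 245, 234 and 229 in Fis1 gs2_F6, 182, 171 and 161 in Mff gs1_B4 and 144, 129.8 and 141 in Mff gs1_C8, against 204, 210.3 and 223 in parental cells. It fell in Drp1 gs2_B4, Fis1 gs1_B11 and both Mff clones, whose libraries all lay below the parental ones, and rose in Fis1 gs2_F6. The log2 fold changes were -0.63 (SE 0.0510, adjusted p = 4.92e-09) in Mff gs1_C8 and 0.14 (SE 0.0506, adjusted p = 0.0432) in Fis1 gs2_F6, the second a call lost without replicate 1 or 2 of either group. Psmb4, a non-catalytic beta subunit, stood at 121, 128 and 126 CPM in Fis1 gs1_B11 and 132, 119.9 and 125 in Mff gs1_C8, against 171, 179 and 189 in parental cells, with log2 fold changes of -0.52 (SE 0.0567, adjusted p = 3.26e-07) and -0.53 (SE 0.0566, adjusted p = 2.55e-07).

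Among the catalytic core subunits, Psmb6 rose in 3 clones and fell in 1. It stood at 120.2, 127 and 126 CPM in Drp1 gs1B8, 127, 131 and 127 in Fis1 gs1_B11, 122.7, 126 and 108 in Fis1 gs2_F6 and 80.4, 76.3 and 74.8 in Mff gs1_C8, against 82.1, 86.3 and 95.1 in parental cells. The first 3 lay above all parental libraries and gs1_C8 below them, with log2 fold changes of 0.49, 0.55, 0.42 and -0.20. Psmb5 rose in Drp1 gs2_B4 and Fis1 gs1_B11, by 0.24 and 0.41 (log2). Psmb7 rose in Fis1 gs2_F6 and Mff gs1_B4, by 0.26 and 0.25, and fell in Drp1 gs2_B4 and Fis1 gs1_B11, with log2 fold changes of -0.18 and -0.25. The Psmb7 call in Drp1 gs2_B4 was lost with ribosomal RNA genes left out and without parental replicate 3 or any gs2_B4 library. Psma6, an alpha subunit at 309.9 ± 18.3 CPM in parental cells (SD, n = 3), rose in Drp1 gs1B8 and both Fis1 clones, by 0.28, 0.20 and 0.37.

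The other core subunits are given by their calls. Psma2, Psma3 and Psmb3 were called in 1 clone, Mff gs1_C8, where they fell with log2 fold changes of -0.16, -0.20 and -0.20. Psmb1 fell there too, at 171, 152 and 160.4 CPM against 197, 192 and 221 CPM in parental cells with a log2 fold change of -0.35 (SE 0.0589, adjusted p = 6.37e-05), and rose in Fis1 gs2_F6 by 0.18, a call lost without parental replicate 1 or 2 or any gs2_F6 library. Psma7 and Psmb2 fell in Fis1 gs1_B11 and Mff gs1_C8 and rose in Fis1 gs2_F6, where Psma7 stood at 343, 341 and 323 CPM against 259, 263 and 299 CPM in parental cells. Psma1 fell in Drp1 gs2_B4, Fis1 gs1_B11 and both Mff clones, with log2 fold changes of -0.21, -0.29, -0.17 and -0.24. Several of the smallest core calls did not hold throughout: Psma4 and Psmb5 in Mff gs1_B4 (-0.16 and -0.19) were lost under 11 and 10 alternatives, and Psma6 in Mff gs1_C8 (-0.13) under 10.

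**Figure D4:**
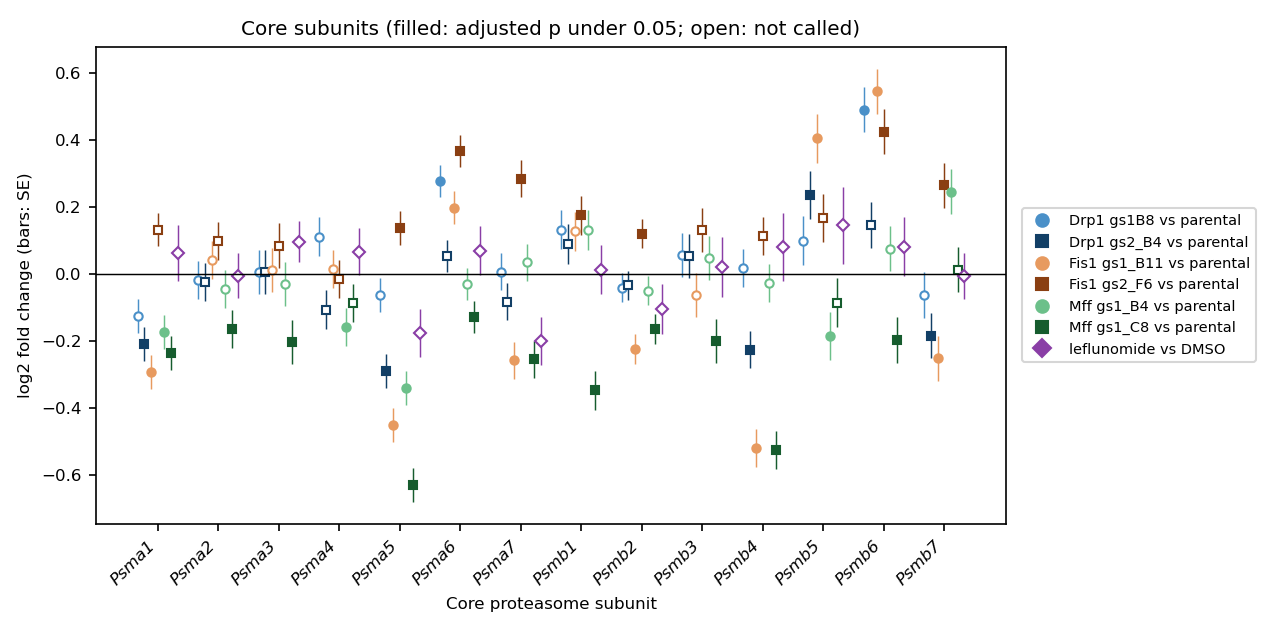
Log2 fold change (points, with standard errors as bars) of the 14 core subunits in each of the 7 comparisons, filled where the edgeR test called the gene. Most points of Mff gs1_C8 lie below 0 and most of Fis1 gs2_F6 above it, and no core subunit was called with leflunomide.

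Clones of the same gene were compared with each other directly. The Mff clones differed in 25 of 33 members, beside 54.7% of all tested genes, with gs1_C8 higher than gs1_B4 for 14 and lower for 11, beside 28.3% and 26.4%. Against a minimum change of 1.5-fold (edgeR glmTreat) 11 members differed between them, beside 12.7% of all genes. These were Tap1, Psmb8, H2-T23, Tap2, Psmb10, Tapbp, Erap1, Psme2, Tapbpl and Psme1, all higher in gs1_C8, and H2-M3, higher in gs1_B4. The largest log2 differences, gs1_C8 minus gs1_B4, were 3.69 (SE 0.360, adjusted p = 2.74e-08) for Tap1, 3.22 (SE 0.288, adjusted p = 1.15e-08) for Psmb8 and 2.27 (SE 0.126, adjusted p = 7.35e-12) for H2-T23. Without gs1_C8 replicate 1 they were 3.36, 2.79 and 2.10, the clones still differed in 25 members, and 9 differed beyond 1.5-fold, beside 11.4% of all genes, with Psme1, Psme2 and Tapbpl no longer among them and Nlrc5, higher in gs1_B4, added. H2-K1, H2-D1 and H2-Q7, by contrast, were not called between these clones, with differences of 0.087 (SE 0.0766, adjusted p = 0.36) for H2-K1 and 0.13 (SE 0.0669, adjusted p = 0.106) for H2-D1. Erap1, H2-T23 and Psmb10 were called in opposite directions against parental cells in the Mff clones, 3 of 33 beside 8.69% of all genes.

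The Fis1 clones differed in 19 members, beside 47.6% of all genes. Fis1 gs2_F6 was lower than gs1_B11 for H2-K1, with -0.64 (SE 0.0787, adjusted p = 1.34e-06), and for H2-D1, H2-Q4, H2-Q7, H2-M3, Nlrc5, Psme1 and Psmb5, and higher for H2-T22, H2-T23, Tapbp and 8 core subunits, in all 11 higher and 8 lower beside 22.9% and 24.7%. Beyond 1.5-fold the pair differed for H2-T23 and Nlrc5, beside 7.44% of all genes. Psma5, Psma7, Psmb2 and Psmb7 were called in opposite directions in this pair, 4 of 33 beside 5.29%. The gs2_F6 calls of Psma5 and Psmb2 were lost without replicate 1 or 2 of gs2_F6 or of the parental cells, which leaves Psma7 and Psmb7. The Drp1 clones differed in 10 members, beside 41.0%, and none was called in opposite directions, beside 2.07%. H2-Q7, Tapbpl and Psme3 were higher in gs2_B4 than in gs1B8, and Tapbp, Tap2 and 5 core subunits were lower, beside 20.1% and 20.9% of all genes higher and lower.

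Set against parental cells and each of the other 5 clones in turn, Mff gs1_C8 was called higher in every comparison for 12 of 33 members, beside 7.93% of all tested genes. They were B2m, H2-Q4, H2-T22, H2-T23, all 5 transport and loading genes, Psmb8, Psmb10 and Psme2. It was called lower in every such comparison for Psma3, Psma5, Psmb1 and Psmb6, 4 of 33 beside 6.97%. Without gs1_C8 replicate 1 the first count was 9, beside 6.86%, without H2-Q4, Tapbpl and Psme2, and the second was 6, beside 5.77%, with Psma2 and Psma6 added. Without gs1_C8 replicate 1 all 16 higher and 11 lower calls against parental cells held, and the fold changes of the higher genes became smaller. The log2 values without it, against those with it, were 1.39 and 1.59 for Tap2, 1.05 and 1.17 for Tapbp, 1.29 and 1.44 for H2-T23, 0.83 and 0.98 for B2m, 1.03 and 1.202 for Psme1 and 0.70 and 0.81 for H2-K1. For H2-D1, H2-Q4, H2-Q7, H2-T22, Tapbpl, Erap1 and Psme2 they were 0.64, 0.75, 0.76, 0.85, 1.00, 0.71 and 0.77 without it, against 0.76, 0.92, 0.92, 0.96, 1.13, 0.82 and 0.98 with it.

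Calls shared by both clones of a gene were fewer. Both Drp1 clones were higher for H2-K1, H2-D1, H2-Q4, Psmb8, Psme1 and Psme2, 6 of 33 beside 7.94% of all genes. Both Fis1 clones were higher for Psma6, Psmb6, Psme1 and Psme2, 4 of 33 beside 5.94%. Both Mff clones were higher for B2m, H2-K1, H2-D1, H2-Q4, H2-Q7, H2-T22, Psmb8 and Psme1, 8 of 33 beside 7.37%, and lower for Psma1 and Psma5, 2 of 33 beside 11.3%. No member was lower in both Drp1 clones or both Fis1 clones, where 12.1% and 9.02% of all genes were.

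With leflunomide, 2 members passed. Tapbp stood at 47.3, 47.2 and 50.5 CPM with leflunomide and 35.1, 35.5 and 39.9 CPM with DMSO, and Psme2 at 51.3, 48.9 and 57.1 CPM with leflunomide and 38.5, 43.0 and 40.4 CPM with DMSO. Neither overlapped its control, with log2 fold changes of 0.39 (SE 0.0725, adjusted p = 0.0346) for Tapbp and 0.37 (adjusted p = 0.04995) for Psme2. The number of higher calls ran from 0 to 5 when single libraries were left out and was 1 without DMSO replicate 3. Both calls were lost without replicate 1 or 2 of either group. The median over the 14 class I and loading genes was 0.30 and over the core 0.04, beside 0.00 over all tested genes. Psmb8 stood at 1.10, 0.763 and 2.41 CPM with leflunomide and 0.335, 0.375 and 0.544 CPM with DMSO, without overlap, and its log2 fold change of 1.79 (SE 0.505, adjusted p = 0.0975) did not pass. Its share of the pair with Psmb5 was 1.45%, 1.13% and 4.01% with leflunomide and 0.597%, 0.545% and 0.959% with DMSO, a log2 ratio difference of 1.43 with an exact permutation p of 0.1. H2-K1 was at 50.7, 47.6 and 39.2 CPM with leflunomide and 34.2, 39.7 and 39.0 CPM with DMSO, and the ranges overlapped.

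The genes that govern this route were read from lists of their known members. In Mff gs1_C8, where the class I genes rose, 8 of 18 tested interferon signalling genes rose and 3 fell, beside 21.5% of all tested genes higher and 25.2% lower. Irf7, an interferon-induced factor, stood at 98.9, 50.3 and 45.2 CPM in gs1_C8, against 1.56, 1.26 and 1.495 CPM in parental cells, with a log2 fold change of 5.48 (SE 0.336, adjusted p = 8.79e-12). Usp18, a brake on the interferon receptor, Irf9 and Stat2 rose by 6.28, 2.61 and 1.97 (log2). Replicate 1 of gs1_C8 was the highest library for Irf7, as it was for Tap1 and Psmb8. Without it 8 of the 18 again rose and 3 fell, beside 20.4% and 21.5% of all genes, and the log2 fold changes of Irf7, Usp18, Irf9 and Stat2 were 5.06, 5.98, 2.55 and 1.84. The 3 that fell without it were Ifnar1, Ifnar2 and Irf8, with log2 fold changes of -0.20, -0.39 and -0.66. Against parental cells and each of the other 5 clones, gs1_C8 was higher for 6 of the 18, Irf7, Irf9 and Usp18 among them, beside 7.93% of all genes, and for 6 again without its replicate 1, beside 6.86%. It was lower in every such comparison for 1 of the 18, Ifnar2, beside 6.97%, and again without its replicate 1, beside 5.77%. Of 8 genes whose products bind class I promoters with Nlrc5, 0 rose and 5 fell in gs1_C8, or 0 and 4 without its replicate 1. Of 6 chaperones of class I folding, 0 rose and 3 fell, or 1 and 3 without it. The shares of all genes are those given above for this clone. The part of these genes in the changes of the class I members was not tested.

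In the other clones the same list gave 6 higher and 1 lower calls in Drp1 gs1B8, 3 and 3 in Drp1 gs2_B4, 2 and 7 in Fis1 gs1_B11, 4 and 5 in Fis1 gs2_F6 and 8 and 1 in Mff gs1_B4. Of all tested genes 12.1%, 24.1%, 21.4%, 13.1% and 20.9% were higher in these clones and 17.4%, 26.3%, 25.9%, 18.2% and 26.8% lower. Irf1, which binds class I promoters, rose in the 5 clones other than Mff gs1_B4, with log2 fold changes of 0.41, 0.56, 0.31, 0.34 and 0.73 in gs1B8, gs2_B4, gs1_B11, gs2_F6 and gs1_C8. Irf7 fell in Fis1 gs1_B11, with -1.49 (SE 0.554, adjusted p = 0.025). Usp18 and Irf7 rose in Mff gs1_B4, by 1.90 and 1.02, and Irf7 rose with leflunomide, by 1.79. Of 8 NF-kappaB genes, 5 rose and 1 fell in Drp1 gs1B8, 3 and 2 in Drp1 gs2_B4, 3 and 2 in Fis1 gs1_B11, 1 and 2 in Fis1 gs2_F6, 3 and 1 in Mff gs1_B4 and 2 and 2 in Mff gs1_C8, with medians of 0.30, 0.06, -0.04, -0.05, 0.12 and -0.06 (log2). Among them Nfkbie, an inhibitor that NF-kappaB itself induces, rose in the Drp1 and Fis1 clones by 1.42, 1.33, 1.08 and 0.88, and Relb rose in the 5 clones other than Fis1 gs2_F6. Nfkb2, a subunit of the factor, and Tnfaip3, a brake that it induces, fell in both Fis1 clones, with log2 fold changes of -0.24 and -0.15 for Nfkb2 and -0.41 and -0.29 for Tnfaip3 in gs1_B11 and gs2_F6. Ciita, the class II counterpart of Nlrc5, had at most 1 count in any library.

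**Figure D5:**
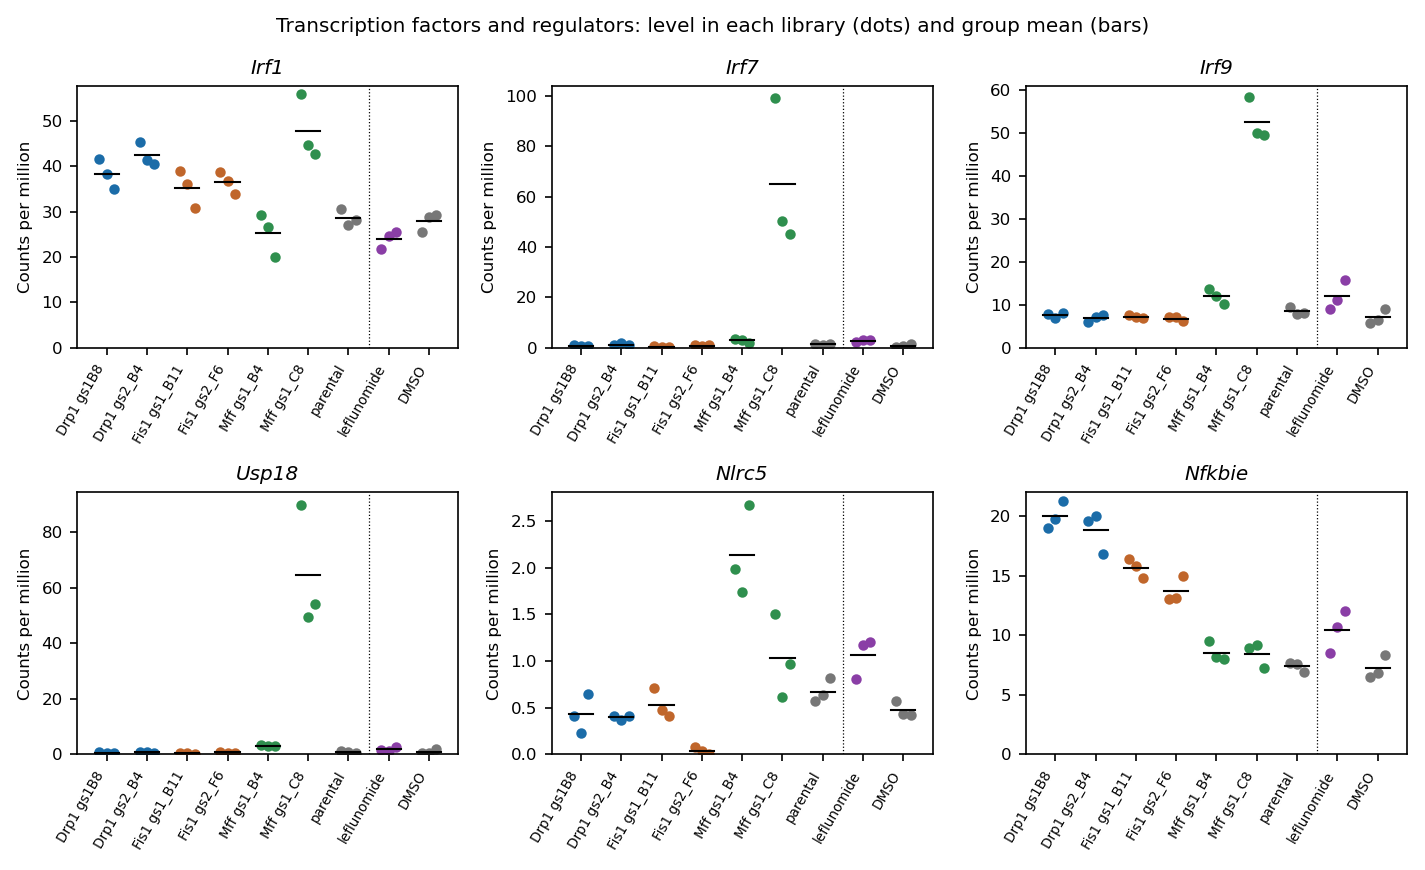
Level in each library (points, CPM) of Irf1, Irf7, Irf9, Usp18, Nlrc5 and Nfkbie over the 9 groups. Irf7 and Usp18 are highest in the 3 libraries of Mff gs1_C8, Nlrc5 in those of Mff gs1_B4, and Nfkbie is higher in the Drp1 and Fis1 clones than in parental cells.

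The regulatory particle and the assembly factors of the proteasome complete the account of the core. Of 18 subunits of the 19S particle, which unfolds substrates for the core, 1 rose and 3 fell in Drp1 gs1B8, 3 and 6 in Drp1 gs2_B4, 1 and 9 in Fis1 gs1_B11, 6 and 1 in Fis1 gs2_F6, 4 and 6 in Mff gs1_B4 and 2 and 8 in Mff gs1_C8. Of all tested genes 12.1%, 24.1%, 21.4%, 13.1%, 20.9% and 21.5% were higher in these clones, in the same order. Lower were 17.4%, 26.3%, 25.9%, 18.2%, 26.8% and 25.2%. Lower calls outnumbered higher ones in the 5 clones other than Fis1 gs2_F6, as they did among all tested genes in all 6 clones. Psmd7, a lid subunit, fell in all 6 clones, with log2 fold changes of -0.49, -0.70, -0.43, -0.22, -0.55 and -0.28 in gs1B8, gs2_B4, gs1_B11, gs2_F6, gs1_B4 and gs1_C8, beside 2.10% of all tested genes that were lower in all 6. Psmg2, a chaperone of alpha ring assembly, fell in 5 clones. Nfe2l1, the factor that raises proteasome genes when the proteasome is impaired, rose in the 5 clones other than Fis1 gs2_F6, by 0.17 to 0.34 on the log2 scale.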

How the data were processed

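PolyA RNA of 27 libraries was sequenced. Per the submitters' processing notes, the authors trimmed reads with Trimmomatic 0.35 and used RSEM and GRCm38 (mm10). The aligner and the version of RSEM are not given. The deposited values are RSEM expected counts per gene, not normalized, of which 91.5% were whole numbers. They were rounded to whole numbers before fitting, and totals ran from 18492020 to 31295937. Floors and intervals cover counting error only, at 95%.

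Clones and parental cells (21 libraries, a coefficient for each group) shared one fit and the drug arm (6 libraries) had its own, both in edgeR 4.0.16 in R 4.3.3 (filterByExpr, TMM, quasi-likelihood F test, two-sided, Benjamini-Hochberg adjustment over 13940 and 12603 genes, adjusted p under 0.05). Differences between clones are contrasts of that fit, and a minimum of 1.5-fold was tested with glmTreat. Levels are CPM with TMM factors over all libraries, so levels between the arms are side by side only. Ratios of subunits used a pseudocount of 0.5 and exact permutation over libraries. Lengths are those of the longest protein-coding transcript of each gene in GENCODE M21, which paired all 34 members. The procedure was tested on simulated data. Figures and promoter searches used Python 3.11.15, pandas 2.3.3, numpy 2.4.6, scipy 1.17.1 and matplotlib 3.10.9.

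Named genes are all 34 members, the targeted genes, up to 4 called genes per list with the largest change, and Irf1, Nfe2l1 and Ciita. A gene that the rule also takes is not reported here. Stat2, Nfkb2, Ifnar1, Ifnar2 and Irf8, named beyond the rule, were chosen after their values were seen. The members and lists were chosen with earlier results of these data known. Alternatives were DESeq2 1.42.0, its size factors, no low-count filter, other sets of libraries in the fit, ribosomal RNA genes left out, a block for runs of consecutive column numbers, limma 3.58.1 voom with quality weights, and each library left out in turn.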

Additional observations from a re-analysis of the deposited data

Results flagged for a closer look

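Of 102 groups of 6 libraries (34 members in 3 genotypes), 5 held a library far from the others by Dixon's criterion, which flags about 1 in 20 groups by chance. Mff gs1_C8 replicate 1 was the highest of the Mff libraries for H2-D1 (283.4 CPM), H2-Q4 (42.3 CPM) and B2m (538.5 CPM). Drp1 gs2_B4 replicate 3 was the highest Drp1 library for H2-M3 (11.4 CPM), and Fis1 gs2_F6 replicate 3 the lowest Fis1 library for Psmb6 (108.3 CPM). These groups join 2 clones, which differ from each other.

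Clones of 1 gene differed by more than 1.5-fold for 13 member and pair combinations (edgeR glmTreat). Fis1 gs2_F6 minus gs1_B11 was 0.89 (log2) for H2-T23 and -3.66 for Nlrc5, the second from 3 counts in gs2_F6. Mff gs1_C8 minus gs1_B4 was 3.69 for Tap1, 3.22 for Psmb8, 2.27 for H2-T23, 1.80 for Tap2, 1.31 for Psmb10, 1.26 for Tapbp, 1.17 for Erap1, 1.00 for Psme2, 0.98 for Tapbpl, 0.94 for Psme1 and -0.97 for H2-M3.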

How the results depend on the processing

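No paired analysis was possible because the columns carry serial numbers and not the labels' replicate numbers, and replicates are numbered here by column order. A block for runs of consecutive serial numbers, fitted in its place, gave 1 higher call with leflunomide in place of 2. No member reversed its direction while called, 76 of the 103 calls held under every alternative, and of 3232 member values under alternatives 132 lost and 88 gained a call. With leflunomide higher calls were 1 with DESeq2 size factors, 6 without the low-count filter, 1 with ribosomal RNA left out, 12 with voom and 9 (with 2 lower) in a fit of all 27 libraries, and 0 to 5 with single libraries left out. Voom gave 1 lower call in Drp1 gs1B8 and 17 higher in Fis1 gs2_F6. Lower calls in Mff gs1_B4 were 5 in the fit of all libraries and 5 with only the groups compared, a fit that gave 16 differing members for the Drp1 clones. With single libraries left out, Fis1 gs2_F6 had 7 to 14 higher and 1 to 3 lower calls, and Mff gs1_B4 4 to 8 and Mff gs1_C8 6 to 11 lower calls. A pseudocount of 5 moved the log2 difference of Psmb9 to Psmb6 to -0.0033 in Drp1 gs1B8 and 1.52 in Mff gs1_C8, where Psmb9 counts are few. With the mean of the 14 core subunits as partner it was 1.14 for Psmb9 in gs1B8, and for Psmb10 -0.22, -0.25, -0.52, -0.43 and 1.06 in Drp1 gs1B8, Drp1 gs2_B4, Fis1 gs1_B11, Mff gs1_B4 and Mff gs1_C8. Apart from fewer libraries, genes or counts, the cause was not tested. Depth limits Psmb9, Nlrc5 and Tap1, and the division of reads limits the class I heavy chains.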

Other observations

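Class I and class I-like genes outside the 34 members were also read with edgeR. H2-T24, a gene of the T region, rose in Mff gs1_C8, with a log2 fold change of 3.99 (SE 0.213, adjusted p = 7.84e-12), at 43.2, 28.1 and 28.2 CPM there, against 2.37, 1.89 and 1.95 CPM in parental cells. Mr1, which shows vitamin B metabolites to MAIT cells, had 1 count over the 3 libraries of Fis1 gs2_F6 and 52 in parental cells, a ratio of 0.0167 with an exact 95% interval of 0.000416 to 0.0974 for counting error only. Nlrc5 was near 0 in the same clone.

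Csf1r, the 1 leukocyte marker that reached 1 CPM, is the receptor for the macrophage growth factor. It was lower in 5 clones and rose with leflunomide by 1.75 (log2, edgeR adjusted p = 0.0124), at 9.22, 7.37 and 5.57 CPM with leflunomide and 1.77, 2.31 and 2.54 CPM with DMSO.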
